A study of Mus musculus with 7 samples.

Results

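Retinoic acid is a signal that embryonic cells make from vitamin A. Retinol is first oxidized to retinaldehyde, and the aldehyde dehydrogenases Aldh1a1, Aldh1a2 and Aldh1a3 then convert retinaldehyde to retinoic acid. Inside the cell, retinoic acid is carried by the cytosolic binding proteins Crabp1 and Crabp2, acts in the nucleus through the receptors Rara, Rarb and Rarg paired with retinoid X receptors, and is broken down by the cytochrome P450 enzymes Cyp26a1 and Cyp26b1. In the embryo, the balance of synthesis and breakdown patterns the hindbrain, spinal cord, somites, limbs, heart and eye.

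These 10 genes were taken by symbol from the 25461 genes of the deposited table, without use of their values. Each was found on 1 row, and all 10 averaged at least 1 FPKM (fragments per kilobase of transcript, scaled to library size), the minimum for testing. The samples were single whole mouse embryos of the B6C3F1 strain at embryonic day 11.5, 3 with the genotype SLMAP3 knockout (KO) and 4 wildtype (WT), and no other treatment. The KO embryos lack exon 3 of Slmap in all tissues through a germline deletion made with CMV-cre mice and then bred free of cre. The deletion removes the long isoform SLMAP3 and leaves SLMAP1 and SLMAP2. Tails had been cut from all embryos for genotyping, so the tail, a site of Cyp26a1 expression in younger embryos, was not in the libraries. The labels do not give litters, and the p-values measure the spread between these embryos. In whole embryos, fewer cells of a type and less RNA per cell cannot be told apart.

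Library depth, estimated from the size of the smallest FPKM values, was 54500000 to 81200000 counts on genes per embryo. Slmap stood at 65.1% of its WT mean in KO embryos, and the ranges of KO and WT embryos did not touch (limma adjusted p = 0.278). The KO embryo KOAC10-5 and the WT embryos KOAC10-7 and KOAC10-2 nearly lacked liver transcripts, with Afp, the main secreted protein of the fetal liver, between 1.30 and 5.18 FPKM against 255 to 376 FPKM in the other 4 embryos. KO and WT embryos were compared for 16095 genes with limma on log2(FPKM + 1), a scale that understates the change of low genes. An adjusted p under 0.05 was reached by 6 genes, or 0.0373% of those tested.

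Among the 10 retinoic acid genes, 0 had an adjusted p under 0.05 in limma in either direction, beside the 0.0373% (0.0186% higher and 0.0186% lower) of all genes tested. The smallest adjusted p was 0.391, for Crabp2, and 2 of the 10, Crabp2 and Cyp26a1, had an unadjusted p under 0.05. Both of these had higher means in KO embryos. Among all genes tested, 11.5% had an unadjusted p under 0.05, 5.27% with a higher and 6.19% with a lower KO mean. The KO and WT values overlapped in all 10 genes, where 11.6% of all genes tested showed no overlap (5.61% with KO above WT and 5.98% with KO below WT). The estimated log2 fold change, KO minus WT, was above 0 for 8 of the 10, with a median of 0.11 beside 0.01 over all genes tested, and above 0 for 53.1% of all genes. The fold changes ran from -0.20 for Aldh1a2 to 0.39 for Cyp26a1.

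**Figure D1:**
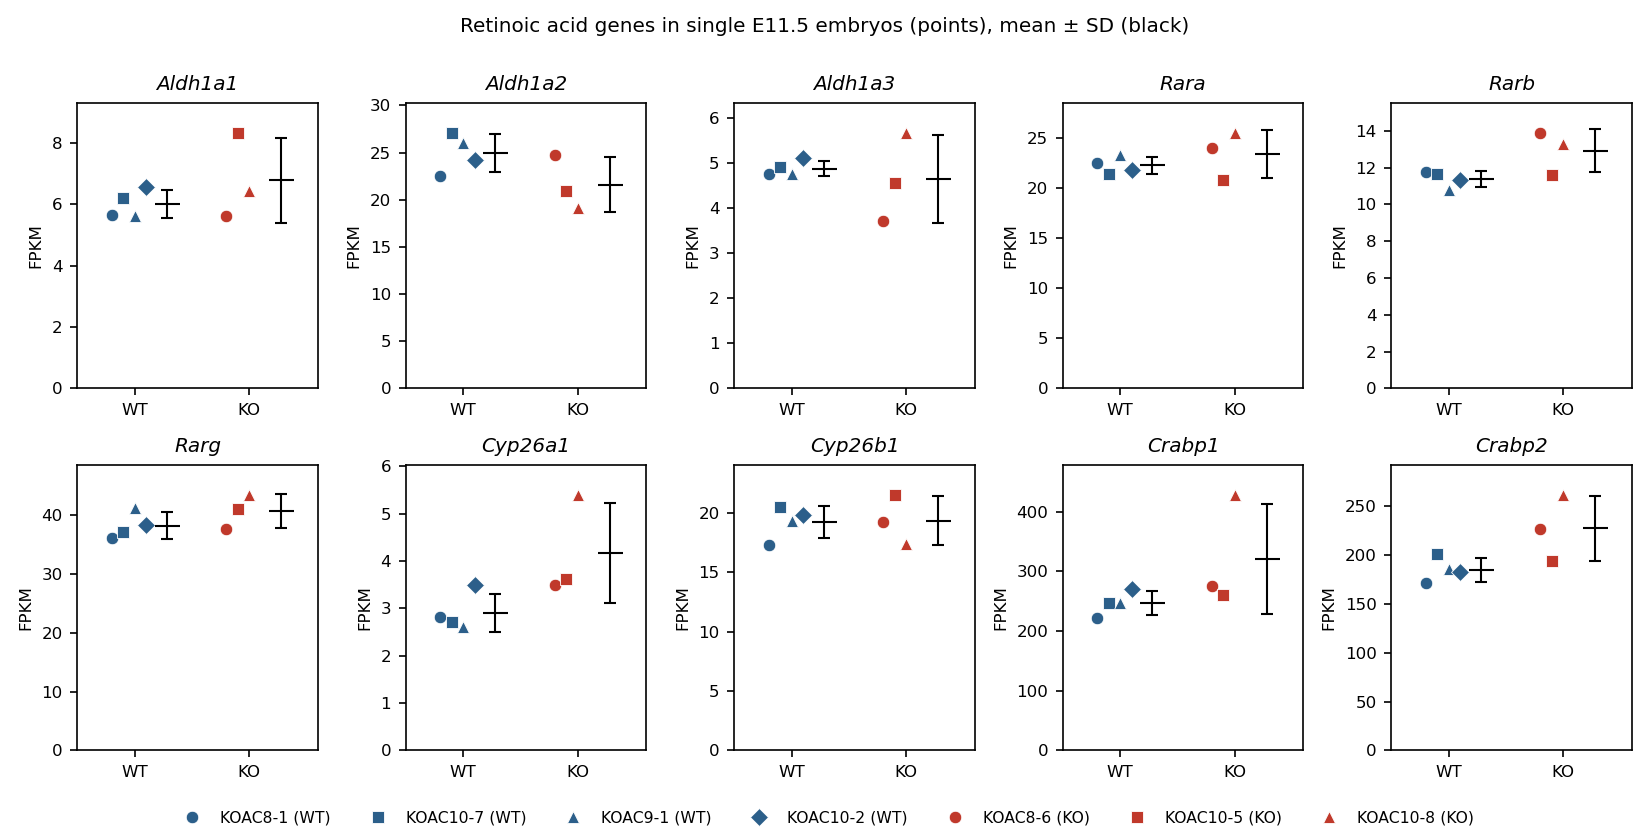
FPKM of the 10 retinoic acid genes in each embryo, with WT embryos in blue, KO embryos in red, a marker shape for each embryo and the mean ± SD of each genotype in black. The genotypes overlap in every panel, and KOAC10-8 is the highest embryo for Crabp1, at 427 FPKM, and for Cyp26a1, at 5.38 FPKM.

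The 10 genes covered a wide range of levels. Per kilobase, Crabp1 was the most abundant, with a WT mean of 247 ± 20.0 FPKM (SD, n = 4), followed by Crabp2 with 185 ± 12.3 FPKM. Crabp1 was above Crabp2 in all 7 embryos, although the ranges of the 2 genes overlapped between embryos. Rarg came next with a WT mean of 38.1 ± 2.26 FPKM (SD, n = 4). Aldh1a2, Rara and Cyp26b1 formed a middle group at WT means of 24.9, 22.3 and 19.3 FPKM, in which Aldh1a2 was above Rara in 6 of the 7 embryos and Rara above Cyp26b1 in 6 of the 7. Rarb was below all of these in every embryo, at 11.4 ± 0.437 FPKM (SD, n = 4). Aldh1a1, Aldh1a3 and Cyp26a1 were the lowest, at WT means of 6.01, 4.88 and 2.91 FPKM, and kept this order in all 7 embryos, although the ranges of neighbors overlapped. The mean normalized count over the 7 embryos in the deposited table ran from 354 for Cyp26a1 to 10562 for Crabp1, so that counting error was largest for Cyp26a1.

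Aldh1a2 is the main retinoic acid-forming enzyme of the early embryo, made in somites, lateral mesoderm, the coelomic lining and spinal motor neurons. It lies on chromosome 9 of GRCm38, from 71215789 to 71296243. It was measured at 24.8, 20.9 and 19.1 FPKM in the KO embryos KOAC8-6, KOAC10-5 and KOAC10-8, while the values were 22.5, 27.0, 26.0 and 24.2 FPKM for the WT embryos KOAC8-1, KOAC10-7, KOAC9-1 and KOAC10-2. Thus KOAC10-5 and KOAC10-8 were below all WT embryos, and KOAC8-6 was inside the WT range. This gave a log2 fold change of -0.20 (95% confidence interval -0.44 to 0.03, limma adjusted p = 0.484). It was -0.12 without KOAC10-8 and -0.30 without KOAC8-6.

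Aldh1a1, which forms retinoic acid in the dorsal retina and is made in midbrain dopaminergic neurons, lies on chromosome 19 from 20492715 to 20643465. Its KO values were 5.62, 8.32 and 6.42 FPKM in the same order, and its WT values were 5.65, 6.22, 5.61 and 6.57 FPKM. A single KO embryo, KOAC10-5, was above the WT range. Its log2 fold change of 0.14 (95% confidence interval -0.15 to 0.43, limma adjusted p = 0.681) became 0.0012 without KOAC10-5 and 0.25 without KOAC8-6. Of the 50-base stretches of Aldh1a1 transcripts, 3.06% also occur in the neighboring paralog Aldh1a7, which lies 49.5 kb from the end of Aldh1a1 and stood at 1.66 FPKM in both genotypes.

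Aldh1a3, the enzyme of the ventral retina and the nasal region, lies on chromosome 7 from 66390890 to 66427517. It was at 3.71, 4.56 and 5.67 FPKM in KO embryos and between 4.75 and 5.11 FPKM in WT embryos. The KO embryos spread to both sides of a narrow WT range, with an SD of 0.980 FPKM against 0.168 FPKM. The fold change on the log2 scale was -0.07 (95% confidence interval -0.35 to 0.20, limma adjusted p = 0.834), and it turned to 0.05 without the KO embryo KOAC8-6 and was -0.20 without KOAC10-8.

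Summed over the 3 enzymes, synthesis reached 33.0 ± 1.62 FPKM (SD, n = 3) in the KO group, against 35.8 ± 2.19 FPKM (SD, n = 4) in the WT group. Aldh1a2 made up 72.6%, 61.9% and 61.2% of this sum in the KO embryos and 67.5% to 71.5% in the WT embryos. The share was just above the WT range in KOAC8-6 and below it in KOAC10-5 and KOAC10-8. Aldh1a1 had its highest share in KOAC10-5, at 24.6% of the sum, and Aldh1a3 in KOAC10-8, at 18.2%.

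**Figure D2:**
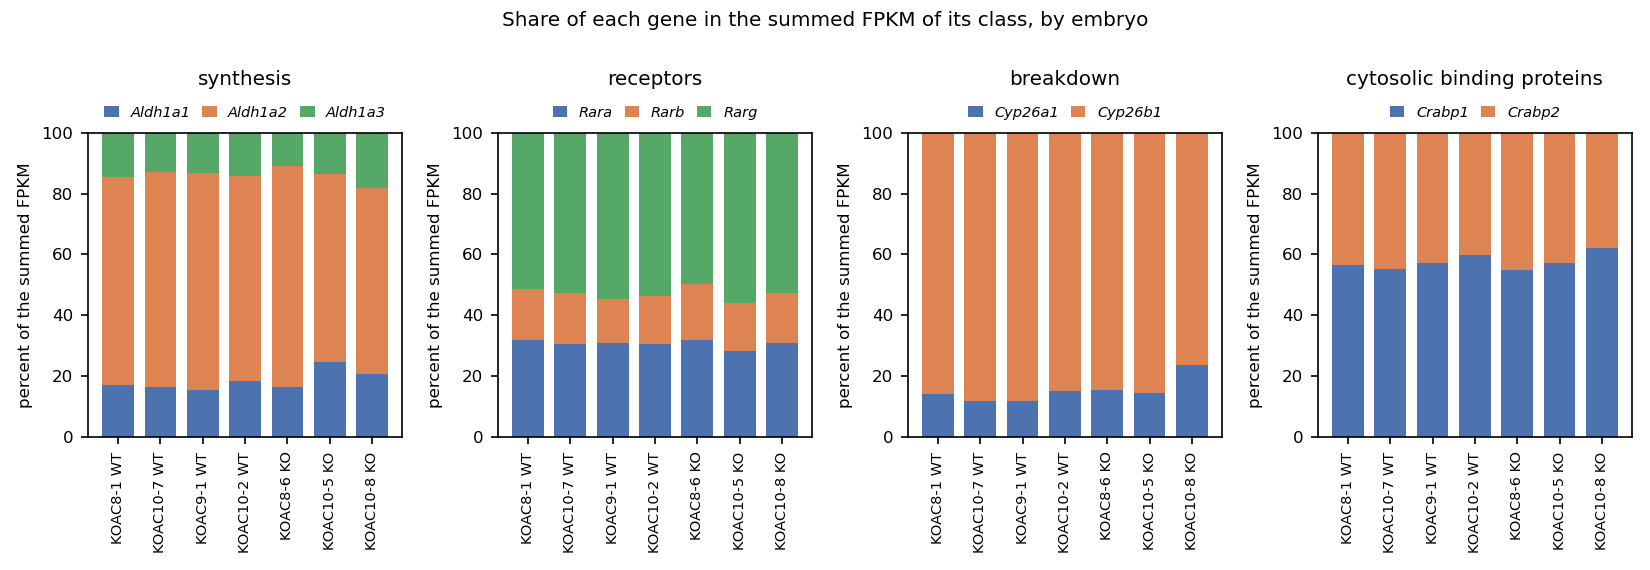
Each gene's percent of the summed FPKM of its class (synthesis, receptors, breakdown, cytosolic binding proteins), with 1 bar per embryo and the 4 WT embryos to the left of the 3 KO embryos. Aldh1a2, Rarg, Cyp26b1 and Crabp1 are the most abundant of their class in all 7 embryos, and KOAC10-8 has the highest Cyp26a1 share, at 23.6%.

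The receptors are ligand-activated transcription factors that bind response elements in DNA. Rarg, the receptor typical of cartilage precursors, skin and tail, was the most abundant, with 52.8% of the summed receptor FPKM in KO and 53.1% in WT embryos. Its values were 37.6, 41.0 and 43.3 FPKM in KO embryos and 36.0 to 41.2 FPKM in WT embryos, which gave a log2 fold change of 0.09 (95% confidence interval -0.07 to 0.25, limma adjusted p = 0.635), and of 0.04 without KOAC10-8 and 0.14 without KOAC8-6. Rara, the most widely expressed receptor, was at 24.0, 20.8 and 25.5 FPKM in KO embryos and 21.4 to 23.3 FPKM in WT embryos, with a log2 fold change of 0.07 (95% confidence interval -0.11 to 0.24, limma adjusted p = 0.757). The Rara value was 0.0043 without KOAC10-8 and 0.15 without KOAC10-5. For both genes the KO values fell on both sides of the WT mean.

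Rarb, whose transcription is induced by retinoic acid itself, was the least abundant receptor. It lies on chromosome 14 from 16430839 to 16819156, 9.59 Mb from the targeted gene Slmap on the same chromosome. Its KO values were 13.9, 11.6 and 13.3 FPKM, and its WT values were 11.8, 11.7, 10.79 and 11.3 FPKM. KOAC8-6 and KOAC10-8 were above all WT embryos, and KOAC10-5 was below the 2 highest of them. The estimate of the log2 fold change was 0.17 (95% confidence interval from -0.003 to 0.34, limma adjusted p = 0.441). The value carries an uncertainty of assignment, because 30.8% of the 50-base stretches of Rarb transcripts also occur in transcripts of Top2b, a DNA topoisomerase gene that overlaps Rarb on the other strand. Top2b was at 161 to 194 FPKM, far above Rarb, with a log2 fold change of 0.03. It was looked at after the Rarb values had been seen.

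Retinoic acid receptors bind a pair of 6-base elements in direct repeat, most often with 5 bases between them. The element AGGTCA was searched together with the variant AGTTCA, the variant GGGTCA and the variant GGTTCA on both strands of 300-base RefSeq promoter windows of GRCm38.p6, which hold 250 bases before and 50 after each start. Windows were present for 8 of the 10 genes. With 5 bases between the elements, the repeat occurred in 2 of these 8, Rarb and Cyp26a1, and in 0.0974% of all 32851 windows. It occurred in none of the 13 other pathway genes and 9 responsive genes (both lists are described further on) that had a window. With 1 or 2 bases between the elements, no repeat was found in the windows of any of these genes, against 0.222% and 0.268% of all windows. Both sequences are shown because Rarb and Cyp26a1 are known to be induced by retinoic acid through elements near their starts. They are written 5′ to 3′ on the strand that carries the repeat, with the repeat in capitals.
Rarb, chr14:16575506-16575535, minus strand: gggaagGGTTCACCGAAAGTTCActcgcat
Cyp26a1, chr19:37697769-37697798, minus strand: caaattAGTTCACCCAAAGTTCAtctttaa

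The Rarb repeat reads in the direction of the gene and lies 53 to 37 bases before the start, where 2 annotated exons of longer Rarb transcripts overlap it. The Cyp26a1 repeat is on the strand opposite to the gene, 16 to 32 bases before the start. Over the 17 bases of the repeat, 15 were identical, and the differences from Rarb to Cyp26a1, counted from the first base of the repeat, were G1A and G9C. The wider Cyp26a1 promoter, on the strand of the gene and with the repeat again in capitals, reads as follows.
Cyp26a1, chr19:37697618-37697797, plus strand: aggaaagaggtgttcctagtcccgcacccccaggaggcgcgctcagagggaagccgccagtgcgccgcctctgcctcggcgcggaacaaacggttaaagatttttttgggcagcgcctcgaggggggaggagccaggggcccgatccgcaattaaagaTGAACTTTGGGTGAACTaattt
These matches describe the letters of the windows, and binding was not measured.

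Cyp26a1, the breakdown enzyme of the tail bud and of parts of the head, had the largest estimated difference of the 10 genes. It lies on chromosome 19 from 37697798 to 37701536. Its KO values were 3.49, 3.63 and 5.38 FPKM, and its WT values were 2.82, 2.71, 2.60 and 3.49 FPKM. KOAC10-5 and KOAC10-8 were above all WT embryos, and KOAC8-6 was level with the highest WT embryo, KOAC10-2. The KO mean of 4.17 ± 1.05 FPKM (SD, n = 3) was 143% of the WT mean of 2.91 ± 0.401 FPKM (SD, n = 4). Between means of log2(FPKM + 1) the difference was 0.39 (95% confidence interval 0.05 to 0.73, limma adjusted p = 0.400), and 0.23 without KOAC10-8.

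Cyp26b1, the breakdown enzyme of limb buds and hindbrain, lies on chromosome 6 from 84571414 to 84593908. It was at 19.2, 21.5 and 17.4 FPKM in KO embryos and at 17.3, 20.5, 19.3 and 19.8 FPKM in WT embryos. The genotypes covered nearly the same range. Its log2 fold change was 0.01 (95% confidence interval -0.20 to 0.21, limma adjusted p = 0.983), and -0.0044 after rescaling to a common sum. Cyp26b1 made up 82.2 ± 5.05% of the summed breakdown FPKM in KO (SD, n = 3) and 86.9 ± 1.62% in WT embryos (SD, n = 4), so that Cyp26a1 held the smaller share throughout.

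Crabp2 carries retinoic acid toward its receptors in the nucleus. It lies on chromosome 3 from 87948666 to 87953376. It was at 227, 194 and 261 FPKM in KO embryos and at 171, 201, 185 and 183 FPKM in WT embryos. KOAC8-6 and KOAC10-8 were above all WT embryos, and KOAC10-5 was above all but KOAC10-7. The KO mean was 123% of the WT mean. Taken between means of log2(FPKM + 1), the log2 fold change was 0.29 (95% confidence interval 0.04 to 0.53, limma adjusted p = 0.391). Without KOAC10-8 it was 0.18.

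Crabp1, which holds retinoic acid in the cytosol and marks hindbrain neural crest, mesenchyme and early neurons, lies on chromosome 9 from 54764748 to 54773110. It was at 276, 260 and 427 FPKM in KO embryos and at 222, 246, 247 and 271 FPKM in WT embryos. KOAC10-8 stood far above the other 6 embryos, KOAC8-6 was just above all WT embryos, and KOAC10-5 was below KOAC10-2. The KO mean of 321 ± 92.4 FPKM (SD, n = 3) was 130% of the WT mean of 247 ± 20.0 FPKM (SD, n = 4). The log2 fold change, taken between means of log2(FPKM + 1), was 0.35 (95% confidence interval -0.06 to 0.75, limma adjusted p = 0.489), and 0.12 without KOAC10-8.

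**Figure D3:**
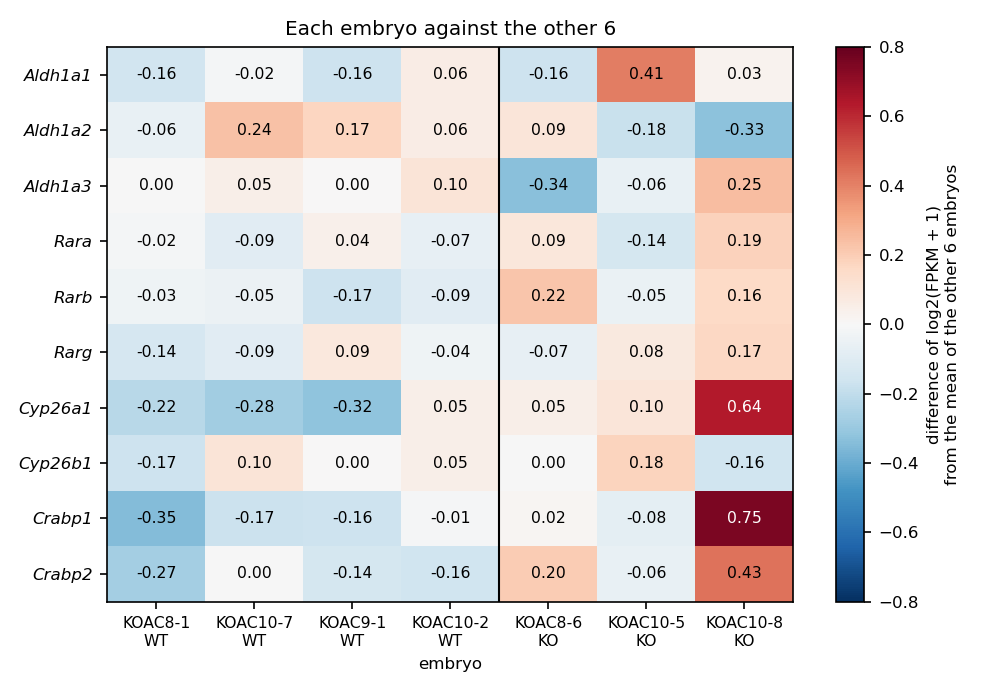
Difference of log2(FPKM + 1) of each embryo from the mean of the other 6 for the 10 genes, in rows, with the 4 WT embryos on the left, the 3 KO embryos on the right, and red for higher and blue for lower. KOAC10-8 stands out with 0.75 for Crabp1, 0.64 for Cyp26a1 and 0.43 for Crabp2.

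The embryo KOAC10-8 thus had a large part in the higher KO means. It was the highest of the 7 embryos in 6 of the 10 genes, Aldh1a3, Rara, Rarg, Cyp26a1, Crabp1 and Crabp2, and the lowest in Aldh1a2. Over all genes tested it was the highest embryo in 26.4%, more than any other embryo. It also had the largest summed FPKM, 861448 against 770063 to 813357 in the other embryos. After rescaling to a common sum, the log2 fold changes were 0.38 for Cyp26a1, 0.33 for Crabp1 and 0.28 for Crabp2. Without rescaling, the median difference of KOAC10-8 from the other embryos over the 10 genes was 0.18 on the log2 scale. It was -0.15 in the WT embryo KOAC8-1, which was the lowest in 4 genes. Without KOAC10-8, 0 of the 10 genes had an unadjusted p under 0.05, beside 7.80% of all genes tested, and without KOAC10-5, 4 had one, beside 16.4% of all genes. The count of the 10 genes and the share of all genes thus moved the same way.

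The remaining genes of the pathway were taken from a list of 19 that supply retinol, form retinaldehyde or act with the receptors. Of these, 18 were tested, and 0 had an adjusted p under 0.05. Lrat, which stores retinol as esters, averaged 0.0642 FPKM and was not tested. An unadjusted p under 0.05 was reached by 1 gene with a higher KO mean, Cyp26c1, and 1 with a lower one, Rxrg. Over all genes tested the shares were 5.27% and 6.19%. The genotypes did not overlap in 1 gene with KO above WT and in 3 with KO below WT, beside 5.61% and 5.98% of all genes tested. Over the 18 genes the median log2 fold change was -0.01, beside 0.01 over all genes tested, with 8 above and 10 below 0.

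Cyp26c1, the breakdown enzyme whose gene lies 4.4 kb from Cyp26a1, was at 1.48, 2.06 and 3.29 FPKM in KO embryos and at 0.916, 1.23, 0.971 and 1.64 FPKM in WT embryos. The embryos ran in nearly the same order as for Cyp26a1, with KOAC10-8 the highest and the WT embryo KOAC10-2 between the 2 lower KO embryos. The estimate was 0.56 on the log2 scale (95% confidence interval 0.08 to 1.04, limma adjusted p = 0.391), and 0.34 without KOAC10-8.

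The retinoid X receptors pair with the retinoic acid receptors on DNA. Rxrg, the form found in skeletal muscle and in subsets of neurons, was at 3.03, 2.93 and 2.50 FPKM in KO embryos and at 4.68, 4.72, 5.77 and 3.95 FPKM in WT embryos. The groups did not overlap, and the KO mean was 59.0% of the WT mean (log2 fold change -0.59, 95% confidence interval -0.87 to -0.32, limma adjusted p = 0.274). The skeletal muscle markers moved with it. Of 9 markers, 8 had KO values wholly below the WT values, beside 5.98% of all genes tested. All 9 had a negative fold change with a median of -0.77, and their summed level was 199 to 233 FPKM in KO and 297 to 381 FPKM in WT embryos. Their part in the Rxrg difference was not tested. The more abundant Rxra, at a KO mean of 20.0 and a WT mean of 20.9 FPKM, and Rxrb, at 46.5 and 43.3 FPKM, also had genotypes that did not overlap, lower in KO for Rxra and higher for Rxrb. Their log2 fold changes were small, at -0.06 and 0.10, with limma adjusted p of 0.597 and 0.481.

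Of the genes that supply retinol, Rbp4, the carrier that the liver secretes into blood, split the embryos by their liver transcripts and not by genotype. It was at 26.5 and 33.0 FPKM in KOAC8-6 and KOAC10-8 and at 51.8 and 41.3 FPKM in KOAC8-1 and KOAC9-1, but at 1.21 to 1.97 FPKM in the 3 liver-poor embryos. The log2 fold change of 0.25 had a 95% confidence interval from -3.22 to 3.73. Without the liver-poor embryos it was -0.63 (limma adjusted p = 0.403), with both KO embryos below both WT embryos. Transthyretin (Ttr), which binds Rbp4 in blood and is made in liver and choroid plexus, did not follow the split in KO embryos. Among WT embryos it was lower in the liver-poor KOAC10-7 and KOAC10-2. It was at 14.4, 15.3 and 15.1 FPKM in KO embryos and at 46.4, 32.3, 53.1 and 35.3 FPKM in WT embryos, without overlap (log2 fold change -1.40, SE 0.17, limma adjusted p = 0.0891). Without the liver-poor embryos the adjusted p of Ttr was 0.0386, with log2 Afp as a covariate it was 0.0374, and over all alternatives it ran from 0.0374 to 0.282. In the 7 other liver markers on the list the groups overlapped, with log2 fold changes from 0.02 to 1.38 and confidence intervals that included 0. These fold changes include the liver-poor embryos. Without those embryos, both KO values were below both WT values for Alb, Apoa1, Apoa2 and Serpina1a. Alb was at 70.4 and 65.2 FPKM in KO against 180 and 136 FPKM in WT embryos. The genotypes still overlapped for Afp, Trf and Fgb. So few embryos separate easily, and the share of all genes that separated in this way was not computed. These separations, with that of Rbp4, are therefore not read as a difference between the genotypes.

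For the genes named here of cellular retinol uptake and of the exchange between retinol and retinaldehyde, the intervals included 0. Stra6, the membrane receptor for Rbp4, had a log2 fold change of 0.05 (95% confidence interval -0.12 to 0.21). Rdh10, which oxidizes retinol to retinaldehyde, had one of -0.03 (95% confidence interval -0.18 to 0.11), with all 7 embryos between 7.14 and 8.19 FPKM. Dhrs3, which reduces retinaldehyde back to retinol, had one of -0.13 (95% confidence interval -0.36 to 0.10). Fabp5, a fatty acid-binding protein that can also carry retinoic acid, was the most abundant gene on the list at a mean of 283 FPKM over the 7 embryos, with a log2 fold change of -0.05. Among coregulators of the receptors, Ncoa1 was lower in all KO than in all WT embryos, at 8.89, 9.61 and 6.83 FPKM against 9.64 to 10.1 FPKM (log2 fold change -0.22, limma adjusted p = 0.477).

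**Figure D4:**
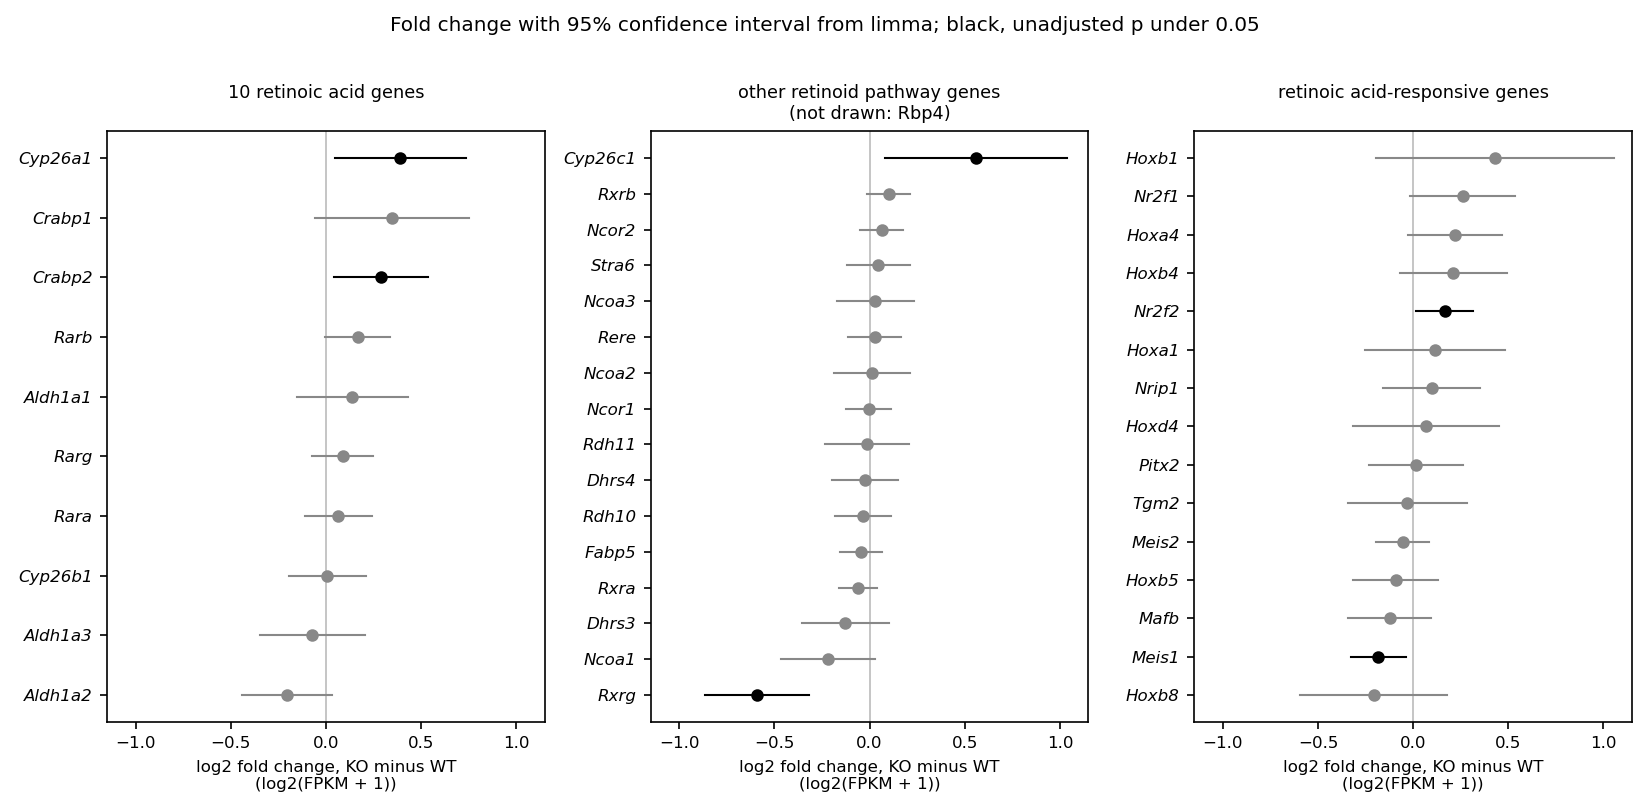
Log2 fold change, KO minus WT, on the log2(FPKM + 1) scale with its 95% confidence interval for the 10 retinoic acid genes, the other retinoid pathway genes and the retinoic acid-responsive genes, with genes of an unadjusted p under 0.05 in black. Most intervals include 0, and Rbp4, whose interval runs from -3.22 to 3.73, is not drawn, nor are a few list genes that are not reported here.

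Genes known to respond to retinoic acid were taken from a list of 18, of which 16 were tested and 0 had an adjusted p under 0.05. The 2 others, Cdx1 among them, averaged under 1 FPKM. Of the 16, 9 had a positive and 7 a negative fold change, with a median of 0.04 beside 0.01 over all genes tested. An unadjusted p under 0.05 was reached by 1 gene with a higher KO mean, Nr2f2, and 1 with a lower one, Meis1, beside 5.27% and 6.19% of all genes tested. The genotypes did not overlap in 0 genes with KO above WT and in 1 with KO below WT, beside 5.61% and 5.98%.

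Nr2f2, an orphan nuclear receptor of mesenchyme and veins, was at 69.4, 64.6 and 68.6 FPKM in KO embryos and at 56.7, 57.4, 61.0 and 65.7 FPKM in WT embryos (log2 fold change 0.17, limma adjusted p = 0.405). KOAC10-5 was just below the highest WT embryo. Its relative Nr2f1, the most abundant gene on the list, had a KO mean of 127 and a WT mean of 106 FPKM (log2 fold change 0.26, limma adjusted p = 0.456). Meis1, a homeobox partner of Hox proteins, was at 35.3, 31.4 and 35.9 FPKM in KO embryos and at 37.3 to 40.2 FPKM in WT embryos, so that the genotypes did not overlap (log2 fold change -0.18, limma adjusted p = 0.361).

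The 7 Hox genes on the list, which set position along the body axis, went both ways. Hoxa4 and Hoxb4 had log2 fold changes of 0.22 and 0.21, and Hoxb5 and Hoxb8 had -0.09 and -0.21, with limma adjusted p between 0.480 and 0.729. Hoxb1, the hindbrain gene with a classic response to retinoic acid, was at 1.52, 0.545 and 2.13 FPKM in KO embryos and at 0.606, 0.785, 0.356 and 1.20 FPKM in WT embryos. KOAC8-6 and KOAC10-8 were above all WT embryos, while KOAC10-5 was below all but KOAC9-1.

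**Figure D5:**
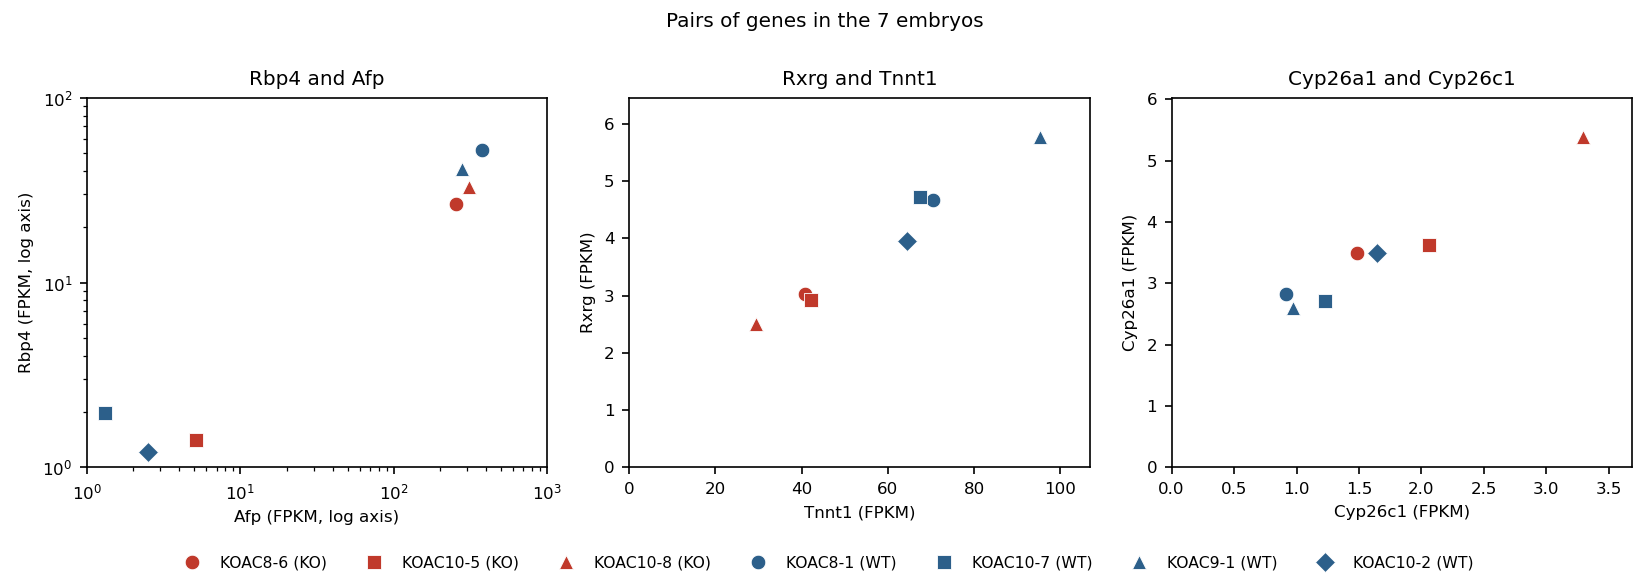
FPKM of Rbp4 against Afp on log axes, of Rxrg against the muscle gene Tnnt1 and of Cyp26a1 against Cyp26c1, with 1 point per embryo, WT in blue and KO in red. The 3 liver-poor embryos lie apart for Rbp4 (1.21 to 1.97 FPKM), the KO embryos lie below all WT embryos for Rxrg, and KOAC10-8 is the highest for both Cyp26 genes.

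Markers of tissues in which the 10 genes are known to be expressed were read beside them. For the tail bud, a site of Cyp26a1, Cdx2, Tbx6 and Hes7 averaged under 1 FPKM, and the summed level of the 5 measured markers was 3.62 to 4.73 FPKM in KO and 3.40 to 3.96 FPKM in WT embryos. Because the tails had been cut off, this sum cannot be read as the amount of tail bud. Its largest parts were Wnt3a and T. Of the 5, Wnt3a, which is also made in the dorsal neural tube, was at 2.00 to 2.23 FPKM in KO and 1.52 to 1.64 FPKM in WT embryos, without overlap. Of all genes tested, 5.61% had KO wholly above WT. The genotypes overlapped for T, the other tested marker, which had a log2 fold change of 0.02. For the coelomic lining, a site of Aldh1a2, Wt1 was at 5.49, 2.88 and 2.88 FPKM in KO embryos and at 4.87 to 5.70 FPKM in WT embryos, so that KOAC10-5 and KOAC10-8 were low as they were for Aldh1a2. Other markers of the lining differed in these embryos. Tcf21 was at 3.35 and 5.24 FPKM, below the WT range of 5.77 to 7.87 FPKM. Upk3b was at 3.63 and 4.30 FPKM, above the WT range of 2.52 to 3.48 FPKM. Tbx18 was at 8.09 and 7.54 FPKM, inside the WT range of 5.50 to 8.76 FPKM. Of the 4 tested markers of that tissue, 2 had an unadjusted p under 0.05 with a lower KO mean (Wt1 and Tcf21) and 1 with a higher one (Upk3b). Over all genes tested the shares were 6.19% lower and 5.27% higher. The summed level of all 5 markers of the coelomic lining was 18.2 to 22.5 FPKM in KO and 19.7 to 25.3 FPKM in WT embryos.

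Summed eye markers, beside Aldh1a1 and Aldh1a3, were at 9.72 to 25.8 FPKM in KO and 15.0 to 25.1 FPKM in WT embryos, and Crygb and Six6 averaged under 1 FPKM. The lowest sum was in KOAC10-8, where Cryaa was at 3.76 FPKM against 10.3 to 20.5 FPKM in the other embryos. KOAC10-8 was not low for every eye marker, as it was the highest embryo for Rax, at 1.80 FPKM, and for Six6, at 0.919 FPKM. The summed neural crest markers, beside Crabp1, were at 25.8 to 31.3 FPKM in KO and 29.7 to 30.7 FPKM in WT embryos. Limb bud markers, beside Cyp26b1, were at 98.6 to 115 FPKM in KO and 90.4 to 103 FPKM in WT embryos. Of these 7 limb markers, 2 had KO values wholly above the WT values, beside 5.61% of all genes tested. They were Fgf10 at 3.13 to 3.19 against 2.46 to 2.99 FPKM and Tbx5 at 8.99 to 10.04 against 1.82 to 8.49 FPKM, and neither had an unadjusted p under 0.05. Spinal motor neuron markers, beside Aldh1a2, were at 25.4 to 32.4 FPKM in KO and 28.2 to 32.8 FPKM in WT embryos, with Mnx1 and Chat averaging under 1 FPKM. The ranges of the 2 genotypes overlapped in each of these sums, and the part of these tissues in the values of the 10 genes was not tested.

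The genes with the most similar pattern were read for each of the 10 genes as the 2 with the highest Pearson's r of log2(FPKM + 1) over the 7 embryos. They were the highest of 16095 genes tested, so the r values, 0.972 to 0.996, are a description with no test. Cyp26a1 was most like Mycn, a proliferation gene of progenitor cells, and Foxb1, a gene of the caudal forebrain and spinal cord. Crabp2 was most like Hsd11b2 and Id2, Crabp1 like Taf15 and Hmg20b, and Rarb like 5730507C01Rik and Sinhcaf. Aldh1a2 was most like Twistnb and Sdsl, Aldh1a1 like Ptpru and Gpank1, and Aldh1a3 like Cops9 and Ndufa2. Rara was most like Apeh and Ppm1g, Rarg like Fam81a and Rpl26, and Cyp26b1 like Gorab and Plac9b. With the 2 embryos farthest from the median left out, r was 0.974 for Cyp26a1 and Mycn, 0.752 for Crabp1 and Hmg20b, and 0.599 for Aldh1a3 and Cops9.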

How the data were processed

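RNA-seq was done on single whole embryos from TruSeq RNA v2 libraries. The authors deposited 1 FPKM value per gene and embryo, and the submitters' processing notes name Salmon, DESeq2, MultiQC and GRCm38 without versions. The deposited table also holds a mean signal per gene (counts divided by size factors, averaged by the authors over the embryos), used here for depth only, and the authors' own log2 fold changes, standard errors and p-values, which were not used. All FPKM columns matched an embryo (0 were left unmapped).

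KO and WT embryos were compared on log2(FPKM + 1) by lmFit and eBayes with a trend (limma 3.58.1 on R 4.3.3), with genotype as the only term. Genes averaging under 1 FPKM were left out. P-values were adjusted by Benjamini and Hochberg's method over the whole table, and 0.05 was the threshold. The steps were tested on simulated data. No counts were recovered from the FPKM values for the comparison of genotypes. The relative depth came from the smallest FPKM values, on the assumption that a gene's FPKM values are proportional to its normalized counts.

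The 10 genes, the 2 further lists, the liver, tail bud, eye, motor neuron, coelomic lining, neural crest, muscle and limb bud markers, and the alternatives were chosen with earlier results of these data known. Named genes were the 10, list genes with an unadjusted p under 0.05 or with genotypes that did not overlap, the most abundant gene of each list, the 2 genes nearest in pattern, and Slmap, Afp, Aldh1a7 and tissue markers. Top2b, the retinol supply genes and the Hox genes were named after their values were seen. The markers Cdx4 and Msgn1 were not analysed here, and a few genes of the lists enter the counts but are not reported singly here. Positions and shared 50-base stretches came from GENCODE M21 (GRCm38), and promoters from RefSeq.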

Additional observations from a re-analysis of the deposited data

Results flagged for a closer look

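In 97 genes of the lists, the 4 WT embryos were examined for an embryo far from the other 3, measured as the gap to the nearest value divided by the range. Such a gap was found in 6 genes, where chance gives 4.85 (about 1 in 20). None of the 6 belongs to the 10 retinoic acid genes. The embryo KOAC10-2 was the lowest for Tbx5, with a gap of 0.868, and the highest for Rax, with 0.943, and for Isl1, with 0.883. Tbx5, a gene of the forelimb and heart, was at 1.82 FPKM in this embryo against 7.61 to 8.49 FPKM in the other WT embryos. KOAC8-1 was the lowest for Tbx6, with a gap of 0.927, and KOAC9-1 was the lowest for Top2b, with 0.925. KOAC10-7 was the highest for Cdx2, with 0.930.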

How the results depend on the processing

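Over 15 alternatives of the fit, 0 of the 148 fold changes of the 10 genes reached an adjusted p under 0.05 (smallest 0.182), and the counts of the 10 genes and of both further lists with an adjusted p under 0.05 were 0 throughout. The median of the 10 genes was 0.09 to 0.13. The number with an unadjusted p under 0.05 was 2 as reported, beside 11.5% of all genes tested. It was 3 with 0.1 in place of 1 added to the FPKM, beside 11.5%, and 3 after rescaling to a common sum, beside 9.63%. It was 1 with a minimum of 5 FPKM, beside 11.7%, under which Cyp26a1 and Aldh1a3 were not tested. With an embryo left out it was 0 to 4, beside 7.80% to 16.4%. With the KOAC series number as a replicate block, it was 0, beside 8.69%, and 7 of all genes tested were called. The block leaves out KOAC9-1, the single embryo of its series, in effect. Without that embryo alone the number was also 0, beside 7.85%, as it was without KOAC10-8, beside 7.80%. Embryos of both genotypes with the same series number had deviations that correlated at -0.0859 to 0.286, against -0.228 to 0.190 for different numbers, and the labels do not say what the number marks. All genes called, 6 as reported, were 10 with log2 Afp as a covariate, 17 without the liver-poor embryos, and 7 to 12 with an embryo left out, the highest without KOAC8-1. The fold change of Cyp26b1 turned to -0.0044 after rescaling to a common sum and -0.0001 without the liver-poor embryos, and ran from -0.0668 to 0.0773 with an embryo left out. That of Aldh1a3 ran from -0.20 to 0.0501 likewise. That of Rbp4 turned to -0.61 with log2 Afp as a covariate and -0.63 without the liver-poor embryos, and ran from -0.52 to 1.47 with an embryo left out. The cause was not tested.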
